A study of Mus musculus with 2 samples.

Results

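The genes described here are 10 genes associated with cytotoxic lymphocytes. They are the pore former Prf1, the granzymes Gzma, Gzmb, Gzmk and Gzmm, and the granule genes Nkg7 and Ctsw. With them are the chemokine Ccl5 and the killer lectin-like receptors Klrd1 and Klrg1. The rule takes the 10 genes by gene symbol and uses no measured value, and 10 of 10 were found among the 55536 annotated genes of GENCODE M21. The genes were measured by RNA sequencing of polyA-selected RNA from regulatory T cells (Treg cells, the Foxp3-expressing CD4 T cells that restrain immune responses). The primary cells came from a male mouse aged 9 weeks, and no treatment, allele or transgene is named. The series holds 2 libraries, labelled as technical replicates 1 and 2 of biological replicate 1, and they are called library 1 and library 2 here. The origin is labelled only as the whole organism. Not given in the sources used here were the mouse strain, the markers used to isolate the cells and the number of mice pooled. There was 1 group, so no condition could be compared, and every spread below is between libraries of the same biosample.

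Cytotoxic T cells and natural killer (NK) cells store perforin and granzymes in secretory granules and release them onto a target cell. Perforin opens pores in the target's membrane, and granzymes, a family of serine proteases, enter through them and cleave proteins inside the cell. Granzyme B and perforin have also been described as means by which activated Treg cells kill other cells, and Klrg1 is known as a surface marker of an effector-like subset of Treg cells.

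Estimated counts over annotated genes came to 34697128 in library 1 and 32049199 in library 2, and 13275 genes reached 1 TPM (a length-corrected level, scaled to the same total in each library) in both, the threshold for calling a gene detected. Of 6 Treg marker genes (Foxp3, Il2ra, Ctla4, Ikzf2, Tnfrsf18 and Izumo1r), 6 were detected, beside 48.0% of all annotated protein-coding genes. Their median was 342 TPM, with Foxp3 itself at 108 and 111 TPM. Detection alone does not establish the Treg label. In bulk RNA of this kind, a low level in many cells and a high level in few cells cannot be told apart.

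The 10 genes spanned more than 3 orders of magnitude in level, and their total was carried by genes other than perforin and the granzymes. Ctsw, Nkg7, Ccl5 and Klrg1 together took 95.6% of the summed 396 TPM of the 10 genes in library 1 and 95.2% of the summed 382 TPM in library 2. In both libraries 6 of the 10 genes were detected, namely those 4 with Prf1 and Gzmb, beside 48.0% of all annotated protein-coding genes. Gzma and Klrd1 each passed 1 TPM in 1 library only, and Gzmm and Gzmk in neither. The highest level was 1706 times the lowest in library 1 and 1733 times in library 2. In TPM, the order of the means was Ctsw, Nkg7, Ccl5, Klrg1, Prf1, Gzmb, Gzma, Klrd1, Gzmm and Gzmk. The values of the libraries overlapped between Nkg7 and Ccl5, between Gzma and Klrd1, and between Klrd1 and Gzmm, so these neighbours were not ordered beyond their spread. The widest steps between neighbours were from Klrg1 down to Prf1, 6.60-fold between the means, and from Gzmb down to Gzma, 5.04-fold.

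**Figure D1:**
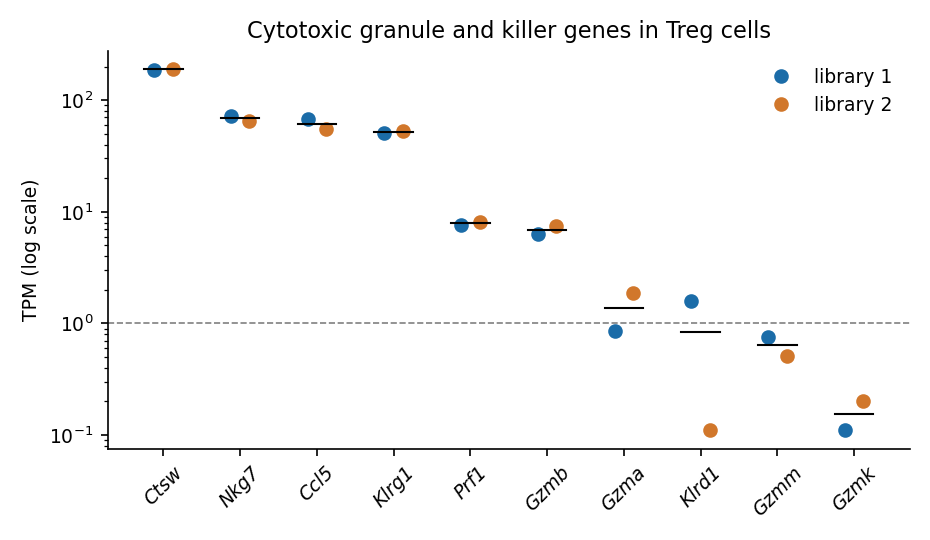
Level of each of the 10 genes in TPM on a log scale; points are the libraries, short black lines their means, and the dashed line marks 1 TPM. Ctsw sits highest at 188 and 191 TPM, and Klrd1 shows the widest gap between the libraries, at 1.58 and 0.11 TPM.

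Of the 4 granzymes of the set Gzmb alone was detected, as was the pore former Prf1, and both stood under the 22.8 TPM median of all detected genes. To show which molecules were counted, the coding stretch around the codon of the catalytic serine is printed for the 4 granzymes of the set and for Gzmc, the neighbour of Gzmb that was detected beside it. The sequences are from the GENCODE M21 transcripts, run 5′ to 3′ on the coding strand, are spliced across an exon junction, and have the serine codon in capitals.
Gzma: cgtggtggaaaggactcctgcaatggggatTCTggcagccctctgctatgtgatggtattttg
Gzmb: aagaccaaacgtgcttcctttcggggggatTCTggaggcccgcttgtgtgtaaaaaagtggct
Gzmc: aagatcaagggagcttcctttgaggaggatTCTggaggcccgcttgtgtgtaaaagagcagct
Gzmk: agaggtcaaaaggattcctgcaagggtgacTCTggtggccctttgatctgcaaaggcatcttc
Gzmm: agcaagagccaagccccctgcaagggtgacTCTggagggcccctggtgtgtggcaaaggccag
On GRCm38 the serine codon lies at chr13:113094042-113094044 (minus strand) in Gzma, chr14:56259554-56259556 (minus) in Gzmb, chr14:56231649-56231651 (minus) in Gzmc, chr13:113172027-113172029 (minus) in Gzmk and chr10:79694993-79694995 (plus) in Gzmm, each in coding sequence. The whole coding sequences of Gzmb and Gzmc were 75.6% identical and those of Gzma and Gzmk 54.8%. Even so, no run of 50 bases was shared between any of the 4 granzymes of the set and another granzyme's coding sequence. Each of the 10 genes was unique in this sense, since 100% of the 50-base runs in its transcripts occurred in no other annotated gene.

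Prf1 (ENSMUSG00000037202.6, chr10:61297833-61304680, plus strand) encodes perforin. Its level was 7.68 TPM on 381 estimated counts in library 1 and 8.08 TPM on 383 in library 2, a mean of 7.88 ± 0.283 TPM (SD, n = 2 technical libraries, as for each mean below). The libraries were close, and Prf1 ranked 9306 of the 13275 detected genes. Against Foxp3, Prf1 stood at 0.0709 of its TPM in library 1 and 0.0730 in library 2.

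Gzmb (ENSMUSG00000015437.5, chr14:56258838-56262260, minus strand) encodes granzyme B, which cleaves after aspartate and activates caspases. It was at 6.28 TPM on 184 estimated counts and 7.52 TPM on 214, a mean of 6.90 ± 0.877 TPM. Per length, Gzmb was a little below Prf1 in each library, with a ratio of 0.818 in library 1 and 0.931 in library 2. Gzmc, whose product granzyme C is another killing protease, was at 4.14 TPM on 74 counts and 6.81 TPM on 118. Gzmb exceeded Gzmc by 1.52-fold and 1.10-fold in libraries 1 and 2. For Gzmc 95.9% of the 50-base runs were unique, the rest being shared with Gzmd, Gzme and Gzmg, which held 3 counts or fewer per library.

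The other granzymes of the set rested on few reads, for which exact Poisson intervals at the 95% level are given; these cover counting error only. Gzma (ENSMUSG00000023132.8, chr13:113093825-113100981, minus strand) encodes granzyme A, a tryptase. It had 16 counts (interval 9.15 to 26.0) in library 1 and 32 (21.9 to 45.2) in library 2, which gave 0.86 and 1.88 TPM. Gzmm (ENSMUSG00000054206.2, chr10:79689020-79695261, plus strand) had 20 counts (12.2 to 30.9) and 13 (6.92 to 22.2), or 0.76 and 0.51 TPM. Gzmk (ENSMUSG00000042385.14, chr13:113171608-113225908, minus strand) had 2 counts (0.242 to 7.22) and 4 (1.09 to 10.2), or 0.11 and 0.20 TPM. Gzma was therefore near the detection threshold, Gzmm below it in both libraries, and Gzmk close to the limit of this depth.

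Over the mouse granzyme family, 2 of 10 genes were detected, Gzmb and Gzmc, and the family summed to 12.4 and 17.0 TPM. Gzme, Gzmg and Gzmn had 0 counts throughout, a result that allows for as many as 3 reads per library. Gzmd had 3 counts and 0, and Gzmf had 2 in each. The detected pair lies on chromosome 14 with 24181 bases between the genes. Gzmd, Gzme, Gzmf, Gzmg and Gzmn lie on chromosome 14 too and were not detected. The sparsely counted Gzma and Gzmk lie on chromosome 13 with 70626 bases between them.

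**Figure D2:**
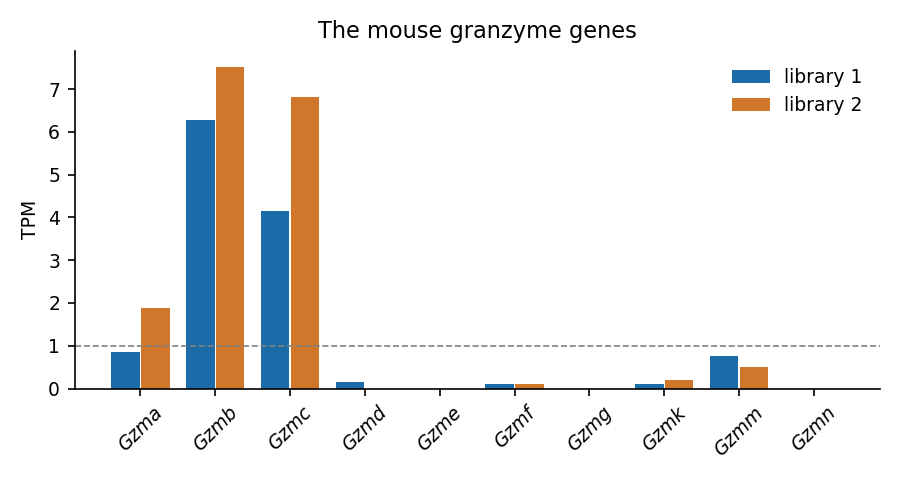
TPM of the 10 granzyme genes, with a bar per library and a dashed line at 1 TPM. Gzmb (6.28 and 7.52 TPM) and Gzmc (4.14 and 6.81 TPM) stand above the rest, and Gzme, Gzmg and Gzmn are at 0.

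Ctsw (ENSMUSG00000024910.5, chr19:5465043-5468507, minus strand) encodes cathepsin W, a cysteine protease of the papain family found in cytotoxic lymphocytes. It was at 188 TPM on 4728 counts in library 1 and 191 TPM on 4648 in library 2, a mean of 189 ± 2.07 TPM, and ranked 920 among detected genes. Ctsw was above Foxp3 in both libraries, at 1.73 and 1.72 times its TPM. It exceeded Prf1 by 24.4-fold and 23.6-fold.

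The Ctsw reads were divided over transcripts of unlike coding potential. The protein-coding Ctsw-201 took 51.3% of the gene's TPM in library 1 and 53.5% in library 2, and Ctsw-203, annotated as a retained-intron transcript, took 24.3% and 21.9%. With Ctsw-202, Ctsw-204 and Ctsw-206, the retained-intron transcripts held 48.7% of the TPM in library 1 and 46.0% in library 2. Ctsw-203 keeps introns of 77 and 287 bases that Ctsw-201 removes, and Ctsw-202 keeps the same 77 bases. That shorter intron is shown with 15 exon bases on either side, chr19:5466297-5466403 on GRCm38, minus strand, with the intron in capitals, because reads on it separate these transcripts from Ctsw-201.
Ctsw-203: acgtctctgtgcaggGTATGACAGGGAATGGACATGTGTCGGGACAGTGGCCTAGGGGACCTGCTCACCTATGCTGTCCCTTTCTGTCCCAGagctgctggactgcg
Of the 1515 positions at which 50 bases can be placed on Ctsw-203, 381 occur in no other Ctsw transcript, so its estimate of 1461 counts in library 1 (posterior SD 52.9) and 1300 in library 2 (50.2) had a base of its own. Ctsw-204 and Ctsw-206 had 0 such positions, and their shares came from the authors' model alone. The coding transcripts by themselves still held 96.2 and 103 TPM.

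Nkg7 (ENSMUSG00000004612.9, chr7:43437073-43438249, plus strand) encodes a small membrane protein of cytotoxic granules needed for their efficient release. It was at 72.6 TPM on 932 counts and 64.5 TPM on 796, a mean of 68.5 ± 5.76 TPM, so library 1 was the higher. Its leading transcript was not a coding one. Nkg7-202, an annotated retained-intron transcript of 526 bases, took 52.8% of the TPM in library 1 and 53.3% in library 2, while the coding Nkg7-201 took 28.1% and 25.7% and the coding Nkg7-203, which skips an exon of 135 bases, took 19.1% and 21.1%. By estimated counts, which do not reward short transcripts, Nkg7-202 still had the largest single share, with 41.5% and 42.2%. Its lead over Nkg7-201, at 38.5% and 35.5%, was smaller than the posterior SD of the Nkg7-201 estimate. The coding transcripts together held 58.5% and 57.8% by counts.

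Nkg7-202 lacks the first exon of Nkg7-201 and starts inside the intron that follows it. Its first 60 bases, chr7:43437504-43437563 on GRCm38, plus strand, are shown with the 33 intron bases in capitals, because these bases are the feature that separates it from the coding transcripts.
Nkg7-202: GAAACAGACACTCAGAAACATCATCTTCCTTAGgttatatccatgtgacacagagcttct
Only 31 of its 477 possible 50-base placements were absent from the other Nkg7 transcripts, and they begin at its bases 1 to 31. The posterior SD of its estimate was 33.4 counts on 387 in library 1 and 30.1 on 336 in library 2, against 79.5 on 359 and 79.9 on 283 for Nkg7-201. The coding transcripts alone amounted to 34.3 and 30.1 TPM, above the detection threshold.

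**Figure D3:**
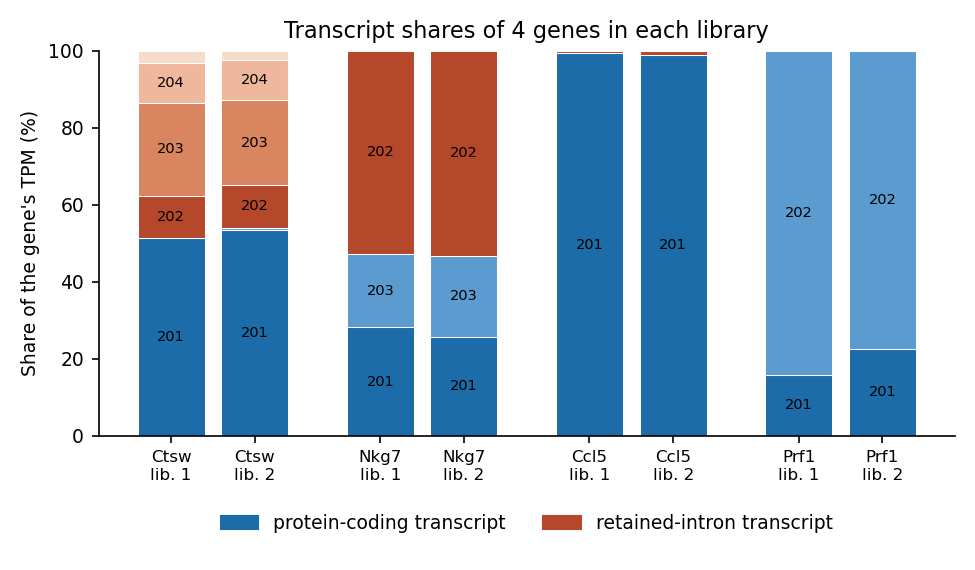
Share of each gene's TPM taken by its annotated transcripts, as stacked bars for Ctsw, Nkg7, Ccl5 and Prf1 in each library; blue marks protein-coding and red-brown retained-intron transcripts, and numbers inside the bars are transcript suffixes. Retained-intron transcripts took 48.7% and 46.0% of Ctsw and 52.8% and 53.3% of Nkg7, but 0.681% and 1.05% of Ccl5.

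By mean share of TPM, 7 of the 10 genes were led by a protein-coding transcript, and the exceptions were Nkg7, Klrd1 and Gzmk, in which a coding and another transcript tied. Among the detected genes of the set 1 of 6, Nkg7, was led by a transcript of another class, beside 12.8% of all detected protein-coding genes. For Klrd1 and Gzmk the leading class rests on a handful of reads. Gzmb-201 and Klrg1-201 are the sole annotated transcripts of their genes. In Prf1, both transcripts are coding, and Prf1-202 took 84.2% in library 1 and 77.4% in library 2. In Gzma the coding Gzma-201 took 54.7% of the TPM in library 1 and 100% in library 2, the rest falling to the coding Gzma-202.

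Ccl5 (ENSMUSG00000035042.2, chr11:83525778-83530518, minus strand) encodes a chemokine that cytotoxic and memory T cells make. It was at 67.6 TPM on 691 counts and 55.3 TPM on 550, a mean of 61.4 ± 8.64 TPM, with library 1 the higher. The coding Ccl5-201 held 99.3% and 99.0% of the TPM. Related genes were far lower. Ccl4, a chemokine of the same chromosome 11 cluster, was at 1.63 and 1.04 TPM, Xcl1 at 2.49 and 1.65 TPM, and Ccl3 was not detected. Per length, Ccl5 exceeded Ccl4 by 41.4-fold and 53.2-fold. Ccr3, which encodes a receptor that binds this chemokine, was at 1.61 and 1.07 TPM, and Ccr1, which encodes another, was not detected. Klf13, which encodes a transcription factor that drives late Ccl5 transcription in T cells, was at 308 and 283 TPM.

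The receptors of the set lay at opposite ends. Klrg1 (ENSMUSG00000030114.8, chr6:122270596-122282882, minus strand) encodes an inhibitory receptor for cadherins. It was at 51.1 TPM on 1473 counts and 53.0 TPM on 1484, a mean of 52.0 ± 1.36 TPM. Its level was 0.472 of that of Foxp3 in library 1 and 0.479 in library 2, so the libraries were close. Cdh1, the gene of its ligand E-cadherin, was not detected, at 0.17 and 0.59 TPM.

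Klrd1 (ENSMUSG00000030165.16, chr6:129591782-129598775, plus strand) encodes CD94, which pairs with NKG2 receptors to read the class I molecule Qa-1. It had 20 counts in library 1 (12.2 to 30.9) and 1 count in library 2 (0.0253 to 5.57), or 1.58 and 0.11 TPM. Only 11.1 of the 20 counts, and none of library 2, were assigned to coding transcripts. Its partner gene Klrc1 was at 0.08 TPM in both libraries and Klrc3 had 0 counts, while H2-T23, the Qa-1 gene, was at 557 and 521 TPM. Klrk1, the gene of the activating receptor NKG2D, was below detection at 0.41 and 0.27 TPM, although its signalling adaptor Hcst was at 342 and 323 TPM. Over the list of killer lectin-like receptors, adaptors and ligands, 6 of 17 genes were detected: Klrg1, Klrb1c, Klrb1f, Hcst, Tyrobp and H2-T23. Klrg1 was the only lectin-like receptor of that list above 2 TPM.

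The packing and release machinery that cytotoxic granules share with other secretory lysosomes was detected throughout the lists examined. Of 12 genes for granule matrix, protease maturation and self-protection, 12 were detected, with a median of 133 TPM, beside 7.39 TPM for the 10 cytotoxic genes and 7.56 TPM for all genes with enough reads to test. Srgn encodes serglycin, the proteoglycan on which granzymes are stored, and was at 732 and 747 TPM, 95.3 times Prf1 in library 1 and 92.4 times in library 2. Ctsc, whose product trims pro-granzymes to their active form, was at 89.0 and 80.2 TPM. Cst7, a cystatin that restrains Ctsc, was at 95.8 and 103 TPM, and Serpinb9, an inhibitor of granzyme B, was at 16.3 and 16.5 TPM. Serpinb9 thus exceeded Gzmb in both libraries.

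Of 12 genes for granule exocytosis, 12 were also detected, with a median of 42.8 TPM. Unc13d, which primes granules for fusion, was at 129 and 111 TPM, its partner Rab27a at 39.7 and 38.3 TPM, and the syntaxin-binding Stxbp2 at 191 and 194 TPM. The lowest was the synaptotagmin-like Sytl3, at 1.08 and 2.74 TPM. Of the death ligands, which kill without granules, Fasl was at 6.96 and 6.27 TPM and Tnfsf10 (TRAIL) at 17.1 in both libraries. Fas, the receptor of Fasl, was at 81.2 and 71.1 TPM.

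Among 8 transcription factors tied to the cytotoxic programme, 6 were detected. Id2, an inhibitor of E proteins, was highest at 71.4 and 56.0 TPM, followed by Bhlhe40 at 21.4 and 15.8, Runx3 at 15.9 and 14.6, and Prdm1 at 13.1 and 9.58 TPM. Tbx21, which encodes T-bet, was at 8.01 and 5.08 TPM, and Eomes at 1.74 and 1.16 TPM. Zeb2 and Zfp683 were below 1 TPM in at least 1 library.

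**Figure D4:**
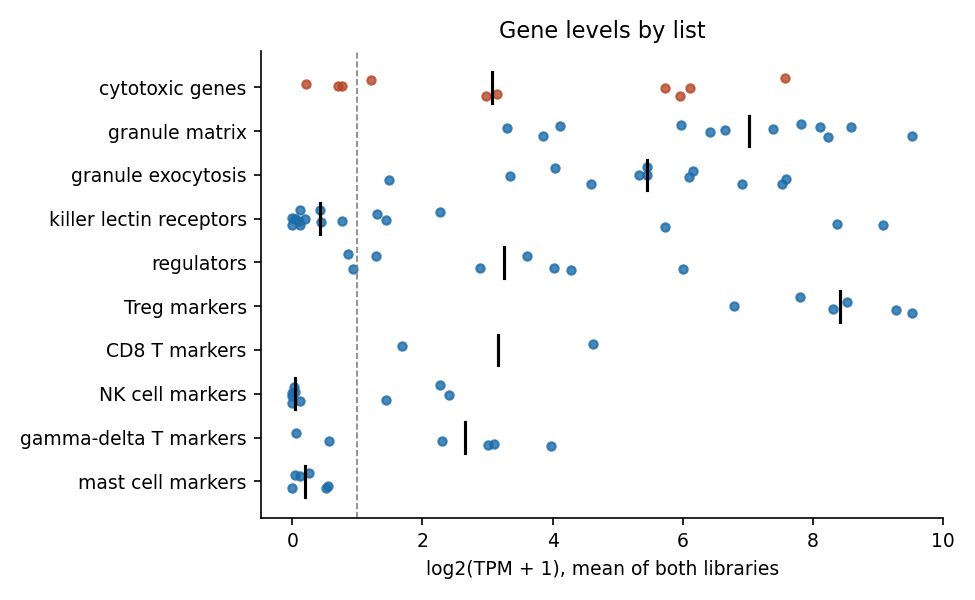
Levels by gene list as log2(TPM + 1), averaged over the libraries; each point is a gene, black bars are list medians, and the dashed line is the level of 1 TPM. The granule matrix and exocytosis lists lie wholly to the right of the line, whereas most killer lectin receptors, NK cell markers and mast cell markers lie to its left.

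Genes of this set are known in several cell types that a Treg preparation could hold, so their markers were read in the same libraries. Of 9 NK cell markers, 3 were detected (Klrb1c, Fcer1g and Tyrobp), and the list summed to 10.8 and 9.21 TPM. Klrb1c had 66.9 and 64 estimated counts, Fcer1g 57 and 55, and Tyrobp 50 and 33. Ncr1, Klra4 and Klra9 of the same list had 0 counts, though only 68.5% of the Klra9 runs of 50 bases were unique to it. The NK marker Klrb1c, the lowest of the 3 in TPM, was 42.0-fold and 38.4-fold below Nkg7. Fcer1g, at 4.31 and 4.29 TPM, and Tyrobp, at 4.59 and 3.12 TPM, stood closer to Nkg7. Of the Klrb1c runs of 50 bases 83.0% were unique to it. Of the CD8 T cell markers 2 of 2 were detected and summed to 25.8 and 26.1 TPM, with Cd8a at 1.69 and 2.84 TPM and Cd8b1 at 24.1 and 23.3 TPM. Of the Cd8b1 runs of 50 bases 93.7% were unique to it, against 99.9% for Cd8a. The level of Nkg7 was 43.0 and 22.7 times that of Cd8a in libraries 1 and 2 but 3.01 and 2.77 times that of Cd8b1. For Klrg1 the ratio was 30.2 and 18.7 to Cd8a and 2.12 and 2.28 to Cd8b1. Prf1 stood at 4.54 and 2.85 times Cd8a and 0.319 and 0.347 of Cd8b1, and Gzmb at 3.72 and 2.65 times Cd8a and 0.261 and 0.323 of Cd8b1. Prf1 and Gzmb were thus above the lower CD8 marker and below the higher. Of the gamma-delta T cell markers 4 of 6 were detected, at a sum of 32.6 and 35.3 TPM. Mast cell and basophil markers were not detected in 6 of 6 cases, and summed to 0.630 and 2.01 TPM with Mcpt8 at 0 counts. B cell markers were detected in 4 of 4 cases and summed to 45.8 and 40.3 TPM, led by Cd79b at 33.0 and 28.7 TPM, above Prf1 and Gzmb. Myeloid markers were detected in 3 of 6 cases and summed to 23.1 TPM in both libraries. What part any of these cells had in the cytotoxic transcripts was not tested.

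The libraries were compared with each other to learn how far a level of these genes can be trusted. A binomial test, exact and two-sided, was applied to the rounded counts of 18746 genes with p-values adjusted by the Benjamini-Hochberg method. It sets library against library, not condition against condition, and knows counting error alone. Of the 9 cytotoxic genes with enough reads, 4 were called at an adjusted p under 0.05, beside 36.5% of all genes tested. Of the 4, Gzma and Ctsw were higher in library 2 and Klrd1 and Ccl5 higher in library 1, against 17.2% and 19.2% of all genes in these directions. The 4 calls in 9 were thus near the general rate, which itself rises with depth: it was 22.6% among genes with a summed count of 10 or more and under 100, 33.3% from there to under 1000, and 44.8% from there to under 10000. The median log2 ratio, library 2 over library 1, was 0.09 over the 9 genes and 0.00 over all tested genes.

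Klrd1 differed most. Its scaled count was 18.5 times as high in library 1 as in library 2, with an exact counting interval of 2.95 to 765. The log2 ratio with a prior count of 0.5 was -3.68 (adjusted p = 0.000188 by the binomial test with Benjamini-Hochberg adjustment), and it was called as well by edgeR's exact test with a common dispersion (adjusted p = 0.0106), which called 2.98% of all genes. The M4 table counts the same libraries again, so it is not an independent check. On it, Klrd1 had 16 reads and 1, with an adjusted p of 0.0044 by the binomial test, which called 14.4% of the genes there. Klrd1 was the only one of the 9 genes that edgeR's test or the M4 counts called. Most of the genes that edgeR's test called were, like Klrd1, not detected. The share of 2.98% thus understates how often that test called such low genes. The NK marker list summed to 10.8 and 9.21 TPM in libraries 1 and 2. Of its detected genes, Tyrobp was at 4.59 and 3.12 TPM, Fcer1g at 4.31 and 4.29, and Klrb1c at 1.73 and 1.68. What part NK cells had in the Klrd1 difference was not tested.

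Gzma was higher in library 2 by a log2 ratio of 1.09 (adjusted p = 0.0383, binomial test), a ratio of scaled counts of 2.17 with an interval of 1.15 to 4.23. Gzmc also stood higher in library 2, by 0.78 (adjusted p = 0.00117, binomial test). Cd8a moved the same way, with 72 and 117 counts, while Cd8b1 was at 24.1 and 23.3 TPM and the sum of the CD8 T cell markers at 25.8 and 26.1 TPM. Other marker lists moved unevenly. Of the mast cell and basophil markers, Tpsb2 had 0 and 22 counts and was called, while Cpa3 had 17 and 10. Of the 6 myeloid markers, S100a8 (0 and 32 counts) and S100a9 (0 and 20) were called higher in library 2 and Csf1r (315 and 182) higher in library 1. Of the gamma-delta T cell markers Tcrg-C1 was called, higher in library 2 by 0.37 on the log2 scale. The part of such cells in these granzyme differences was not tested. Ccl5 was lower in library 2 by -0.21 (adjusted p = 0.0295) and Ctsw higher by 0.09 (adjusted p = 0.00953), both by the binomial test and both small in size. By edgeR's exact test the adjusted p was 0.469 for Gzma and 1 for Ccl5 and Ctsw.

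The remaining ratios did not pass the binomial test. Klrg1 stood at 0.13 (adjusted p = 0.0505), Gzmb at 0.33 (0.0623), Nkg7 at -0.11 (0.207), Prf1 at 0.12 (0.390) and Gzmm at -0.49 (0.540), with Benjamini-Hochberg adjustment throughout. For Gzmb the exact counting interval of the ratio ran from 1.03 to 1.54, and for Gzmm from 0.322 to 1.49, so a difference of modest size was not detectable for Gzmm at this depth. Gzmk had too few reads to be tested, and its ratio of 2.17 had an interval of 0.310 to 23.9.

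**Figure D5:**
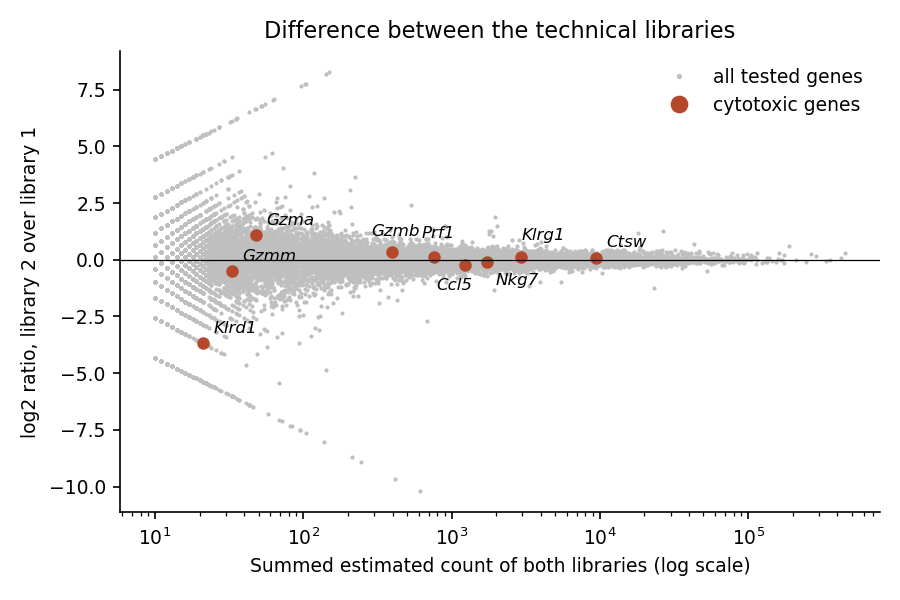
Log2 ratio of library 2 over library 1 against the summed estimated count of both libraries (log scale), for all tested genes in grey and the 9 tested cytotoxic genes in red-brown. The cytotoxic genes with over 100 counts lie between -0.21 and 0.33, and Klrd1, on 21 counts, lies lowest of the 9 at -3.68.

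The related lists were read in the same way. Of the 12 granule matrix genes, 9 were called by the binomial test, 3 higher in library 2 and 6 higher in library 1, and none by edgeR's exact test. Most of these genes are deeply counted, and among all genes with a summed count of 10000 or more the test called 66.5%. Of the exocytosis genes 5 of 12 were called, beside 44.8% of genes with 1000 or more and under 10000 counts, and Sytl3, with 41 and 109 counts, was the one that edgeR's exact test also called (log2 ratio 1.51, adjusted p = 0.0119). Of the 8 regulators, 5 were called by the binomial test and none by edgeR's exact test. At the depths of these 5, the binomial test called 33.3% of genes with 100 or more and under 1000 counts. It called 44.8% of those with 1000 or more and under 10000, in either direction. The 5 regulators were all higher in library 1, the direction in which 19.2% of all genes were called. Their log2 ratios were -0.59 for Tbx21, -0.54 for Eomes, -0.45 for Prdm1, -0.36 for Bhlhe40 and -0.27 for Id2. Of the cytotoxic genes that were called, Klrd1 and Ccl5 shared this direction and Gzma and Ctsw had the opposite one.

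The M4 table, which counts whole reads on the genome with an older annotation, also gave the most reads to Ctsw. Its counts in library 1 and library 2 were 1950 and 1931 for Ctsw, 512 and 472 for Nkg7, 412 and 450 for Klrg1 and 257 and 232 for Ccl5. Prf1 had 264 and 260, more than Ccl5 in both libraries, whereas the M21 counts put Ccl5 above Prf1. The other counts were 99 and 118 for Gzmb, 14 and 29 for Gzma, 18 and 11 for Gzmm, and 2 and 3 for Gzmk. Scaled by library totals, 3 of 8 genes compared were over 2-fold higher on M4 than on M21 in both libraries, and 0 over 2-fold lower. Over all genes, 28.8% were so much higher and 36.7% that far apart in either direction. The 3 genes were Gzma, Gzmm and Prf1. The M4 count was 28.0% of the M21 count for Klrg1 and 69.3% for Prf1 in library 1, so the distance between these genes depended on the table. In library 1 this share was 87.5% for Gzma and 90.0% for Gzmm, both sparsely counted, and 41.2% for Ctsw. Outside the set, the deeply counted Cd3e had 34030 M21 counts and 1270 M4 counts there. The 3 genes over 2-fold higher on M4 had 383 M21 counts or fewer per library. Gzmb, at 184 and 214 M21 counts, was not among them, and its M4 share in library 1 was 53.8%. Klrg1, at 1473 M21 counts in library 1, had a lower share than Ctsw at 4728. Whether count depth set these gaps was not tested. With scaling by the median ratio over genes, 0 of 8 were over 2-fold apart.

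The genes beside the 10 were of very unlike level. Of 20 distinct nearest protein-coding neighbours, 6 were detected, beside 48.0% of all protein-coding genes. Nkg7 lies between Lim2, at 0 TPM, and Cldnd2, at 0.18 and 0.09 TPM, and Prf1 between Adamts14 and Pald1, both below 1 TPM. Ccl5 lies between Heatr9 and Ccl9, both at 0.13 TPM or less. Gzmm is the reverse case, at 0.76 and 0.51 TPM between Cdc34 at 75.8 and 67.7 TPM and Bsg at 218 and 212 TPM. Klrg1 has M6pr, at 176 and 157 TPM, on 1 side. Klrd1 has Klre1 and Klrk1 on either side, both below 1 TPM. Ctsw overlaps Fibp by 9 bases on the opposite strand, and Fibp was at 139 and 133 TPM. Gzmk overlaps Esm1 on the opposite strand, which was at 0.16 and 0 TPM. Whether reads were counted by strand is not given in the sources used here, so reads in these overlaps cannot be assigned by strand. In the transcripts of Ctsw and of Gzmk, however, 100% of the 50-base runs occurred in no other gene on either strand.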

How the data were processed

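RNA of 1 biosample was measured in 2 technical libraries. Per the file headers, the authors' M21 gene and transcript tables (mm10) hold estimated counts, in which shared reads are divided by a model, with TPM, FPKM, posterior means and SDs, and each transcript's percent of its gene. Effective length was length less 49 bases in 100% of transcripts, so 50-base placements were used for uniqueness. The third deposited table holds whole-number counts on GENCODE M4, made from genome alignments per the deposited file lists and totalling 9576557 and 8937887. The aligner, quantifier and read length were not stated in the sources used here. Rows naming no annotated gene held 0.197% and 0.212% of estimated counts and were left out.

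Names, coordinates (1-based) and sequences came from GENCODE M21 on GRCm38. Estimated counts were rounded, scaled by TMM factors (edgeR 4.0.16, R 4.3.3) and compared by an exact binomial test over 18746 genes whose counts summed to 10 or more. Alternatives were DESeq2 1.42.0 size factors, library totals, other filters, edgeR's exact test with a common dispersion (0.0228) and M4 counts. With 1 library a side, residual degrees of freedom are lacking for edgeR's quasi-likelihood test. The tests were tested on simulated data. PCR copies are not independent molecules, so the intervals and the p-values of the binomial test cover counting error only and understate technical noise. The common dispersion of edgeR's exact test was estimated from both libraries and so takes in spread between them. Intervals are exact, at the 95% level. The text names all 10 genes, the detected genes of 15 other lists by value or count, overlapping genes and nearest coding neighbours. All 115 listed symbols matched. Some listed genes are not reported here. The rule for the 10 genes uses symbols only, but these genes and the lists were chosen with earlier results of these data known.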

Additional observations from a re-analysis of the deposited data

How the results depend on the processing

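The number of detected genes was 6 of 10 at 1 TPM in both libraries and 10 at 0.1 TPM, and with either library left out it was 7. Of the 4 genes called between the libraries, 2 were called with no filter beyond 1 read, 1 by edgeR's exact test and 1 on M4 counts. The number of genes over 2-fold apart between the M4 and M21 tables fell from 3 to 0 with scaling by the median ratio. The count of 7 genes led by a protein-coding transcript stayed within 1.5-fold under the alternatives run. Of 63 alternative log2 ratios of single genes, 0 changed sign and 8 lost the call, all of them for Ccl5, Gzma or Ctsw. Posterior mean TPM moved the level by more than the spread between libraries for Gzmk (0.27 TPM), Prf1 (7.39), Klrg1 (48.4) and Ctsw (176). It lowered all 6 detected genes, also Nkg7 (68.5 to 64.3 TPM), Ccl5 (61.4 to 57.3) and Gzmb (6.9 to 6.445). For Prf1, Klrg1 and Ctsw the shift passed the spread because their libraries were close. No paired analysis was possible because both libraries belong to 1 group. With 1 biosample, the data hold no spread between mice. Depth limits Gzma, Gzmk, Gzmm and Klrd1, which had 32 counts or fewer per library, and transcript shares rest on few placements that tell transcripts apart.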
